A study of Mus musculus with 83 samples.

Results

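The step between 4 h and 8 h after an ovulatory stimulus was examined in single mouse ovarian follicles that had not been frozen. The 11 libraries were all those labelled fresh at these times, 4 at 8 h and 7 at 4 h. The series has 83 libraries, and each held the RNA of 1 follicle. Follicles were wild type, from the outbred strain CD-1, and both groups had the same history. It was 8 days of growth, each in its own bead of 0.5% alginate and with recombinant follicle-stimulating hormone (rFSH), then release from the bead with alginate lyase at a diameter of 300 to 350 µm, and transfer to a maturation medium with 10% serum. That medium held 1.5 IU/ml human chorionic gonadotropin (hCG), 10 ng/ml EGF and 10 mIU/ml rFSH for the 8 h follicles as for the 4 h follicles. No follicle of these times without hCG was analysed here, so time in the medium, the response to hCG, and the responses to EGF and rFSH cannot be told apart. Neither the donors' ages nor the animals and culture runs are given, so the p-values cover variation among follicles only, some of which may share an animal.

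Before ovulation, luteinizing hormone acts on mural granulosa cells, which raise cAMP and release EGF-like growth factors; these pass the signal on to the cumulus cells around the oocyte. Granulosa cells then switch on the progesterone receptor and prostaglandin synthesis for a short time, lay down a hyaluronan matrix, and turn from estradiol to progesterone production as they become luteal cells. hCG acts on the same receptor as luteinizing hormone.

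Total counts per library were 1615779 to 6445431 at 8 h and 1755637 to 3116261 at 4 h (exact permutation test of the means, two-sided, adjusted p = 0.0854 over 13 library measures). The 8 h libraries had a count in 13319 to 16370 genes, against 12328 to 13308 at 4 h, and after thinning to the smallest library in 13319 to 13947 genes, against 11833 to 12867. The 50 most abundant genes took 36.8% ± 1.84 of counts at 8 h (SD, n = 4) and 44.5% ± 2.08 at 4 h (n = 7), a difference with an exact permutation p of 0.00303, the smallest this design allows (adjusted p = 0.0131). 1 predicted gene, Gm10800, took 1.55% to 3.77% of counts at 8 h and 2.34% to 6.51% at 4 h (exact permutation test, adjusted p = 0.0492). Spearman correlations of whole profiles were 0.936 to 0.968 among the 8 h follicles and 0.924 to 0.956 among the 4 h follicles, against 0.806 to 0.853 between the groups. The 8 h libraries sat in 1 row of the plate named in the titles and the 4 h libraries in another, and 3 of the numbers that end the titles occur in both rows. Time and plate row cannot be told apart here.

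Granulosa markers, Inha and Gja1 above all, took 1.43% to 2.13% of counts at 8 h and 4.03% to 5.26% at 4 h, so that the labelled tissue held abundant granulosa transcripts at both times. These markers did not move together: Inha, Gja1, Cyp19a1, Nr5a2 and Fst were called lower at 8 h, and Fshr and Amhr2 higher. Since each library is a whole follicle, fewer cells of a type and less RNA per cell cannot be told apart in any result below. Of 23 oocyte markers 21 had a row and 3 had enough counts to test, and these markers summed to 0.00614% to 0.0133% of counts at 8 h and 0.00417% to 0.0178% at 4 h. Gdf9, an oocyte growth factor, had 91 counts over the 11 libraries. Theca and stroma markers summed to 0.0191% to 0.0624% at 8 h and 0.0206% to 0.191% at 4 h, the highest in 4 h replicate 4. Endothelial, immune, smooth muscle, erythroid and surface epithelium markers each summed to at most 0.00706% of counts in an 8 h library and 0.0117% in a 4 h library. Members differed: over the 11 libraries the immune marker Lyz2 had 618 counts and Mrc1 0, and the epithelial marker Krt8 had 153 and Krt7 0.

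Expression changed widely between the times. Values below are normalised CPM, that is counts scaled to a fixed library total after TMM scaling, which takes most genes to be unchanged. The ± beside a log2 fold change is its standard error. Of 8043 genes tested with edgeR's quasi-likelihood test, 2108 (26.2%) rose and 1931 (24%) fell at a Benjamini-Hochberg adjusted p under 0.05, and 50.2% were called in either direction. The counts of risers and fallers in each gene list below are to be read beside these shares. At least 2-fold changes were called for 1441 genes that rose and 1061 that fell. The 8 h and the 4 h libraries did not overlap at all for 33.6% of the genes tested. Scaled by library total alone, 50.8% rose and 9.36% fell, and the median log2 fold change of all genes was 0.69 in place of 0.06. Directions are therefore relative to the bulk of genes, and a gene list's median is given under both scalings, so that a total-count median near 0.69 is that of the average gene.

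The largest rises took genes that were barely counted at 4 h to a clear level in every 8 h follicle. Susd3, which encodes a sushi domain protein of the cell membrane, had 186, 256, 289 and 184 CPM at 8 h, against 0.661 to 2.92 CPM (median 1.44) at 4 h. All 4 later follicles were far above every earlier one (log2 fold change 7.17 ± 0.24, adjusted p = 9.34e-12, edgeR). Susd3 lies at chr13:49230690-49248706, minus strand (GRCm38). Tsc22d3, the glucocorticoid-induced leucine zipper, had 199, 271, 326 and 239.7 CPM at 8 h, against 0.661 to 6.71 CPM (median 1.46) at 4 h. Its groups did not overlap either, with 4 h replicate 6 the highest of its group (log2 fold change 7.01 ± 0.37, adjusted p = 9.35e-09). The gene lies at chrX:140539528-140600659, minus strand. Spp1, which encodes osteopontin, a secreted phosphoprotein that binds integrins, had 2101, 987, 1151 and 1702 CPM at 8 h, against 7.22 to 32.4 CPM (median 17.2) at 4 h, again without overlap (log2 fold change 6.37 ± 0.34, adjusted p = 2.89e-08). Summed over libraries, the 4 h counts behind the first 2 of these folds were small, 21 for Susd3 and 26 for Tsc22d3.

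Fkbp5, an HSP90 co-chaperone of steroid receptors, had 121, 107, 156 and 162 CPM at 8 h, against 3.97 to 13.3 CPM (median 5.84) at 4 h (log2 fold change 4.13 ± 0.25, adjusted p = 8.94e-09). Zbtb16, the zinc finger repressor PLZF, had 31.2, 60.6, 72.5 and 58.02 CPM at 8 h, against 1.46 to 5.48 CPM (median 2.01) at 4 h (log2 fold change 4.27 ± 0.31, adjusted p = 4.09e-08), and its lowest 8 h follicle was still above the highest at 4 h. Crispld2, a secreted protein that glucocorticoids induce, had 293, 423, 532 and 359 CPM at 8 h, against 23.3 to 43.8 CPM (median 29.7) at 4 h (log2 fold change 3.69 ± 0.18, adjusted p = 1.57e-09). In all 3 the later follicles stood above the earlier ones without overlap. Epas1, the hypoxia-inducible factor HIF-2α, had 338, 730.1, 999 and 347 CPM at 8 h, against 25.8 to 60.4 CPM (median 38.8) at 4 h, with replicates 2 and 3 well above the other pair and no overlap with the 4 h group (log2 fold change 3.76 ± 0.32, adjusted p = 1.48e-06). Cav1, the scaffold of caveolae, had 296, 404, 413 and 122 CPM at 8 h, against 5.03 to 28.3 CPM (median 9.25) at 4 h and was lowest in replicate 4 (log2 fold change 4.69 ± 0.49, adjusted p = 1.62e-05). Car12, a carbonic anhydrase of the cell surface, had 294, 209, 62.5 and 62.5 CPM at 8 h, against 2.78 to 7.95 CPM (median 5.39) at 4 h, so that replicates 1 and 2 were well above replicates 3 and 4 (log2 fold change 4.92 ± 0.46, adjusted p = 5.19e-06).

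Of the others with the largest rises, Hdc makes histamine from histidine and had 52.8 to 133 CPM at 8 h and 2.16 to 14.3 CPM at 4 h (log2 fold change 3.92 ± 0.44). Tom1l1, an adaptor of Src family kinases, had 47.7 to 70.04 CPM at 8 h and 2.12 to 5.84 CPM at 4 h (3.96 ± 0.23). Traf3ip2, the adaptor of the interleukin-17 receptor, had 37.8 to 75.5 CPM at 8 h and 1.98 to 8.48 CPM at 4 h (3.80 ± 0.28). In none of these did the groups overlap. Among abundant genes, Psap, prosaposin, a precursor of lysosomal activators, had 2345, 3119.5, 4569 and 2559.9 CPM at 8 h, against 719.9 to 1224 CPM (median 1028) at 4 h (log2 fold change 1.65 ± 0.18, adjusted p = 2.34e-06). Jcad, a cell junction protein, had 533, 2303, 3016 and 547 CPM at 8 h, against 161 to 299.8 CPM (median 216) at 4 h, with replicates 2 and 3 far above replicates 1 and 4 (log2 fold change 2.86 ± 0.46, adjusted p = 0.000433). Ucp2, a carrier of the mitochondrial inner membrane, had 5611, 6465, 9475 and 11185 CPM at 8 h, against 4640.3 to 5946 CPM (median 5475) at 4 h, and 8 h replicate 1 lay within the 4 h range (log2 fold change 0.62 ± 0.17, adjusted p = 0.00619). Ctsl, the lysosomal protease cathepsin L, had 6056, 15420, 9410.3 and 7543 CPM at 8 h, against 4628 to 7622 CPM (median 5124) at 4 h (log2 fold change 0.70 ± 0.23, adjusted p = 0.0182). Replicates 1 and 4 lay within the 4 h range, and its call rested on replicate 2: without that follicle the log2 fold change was 0.38 (adjusted p = 0.128).

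**Figure D1:**
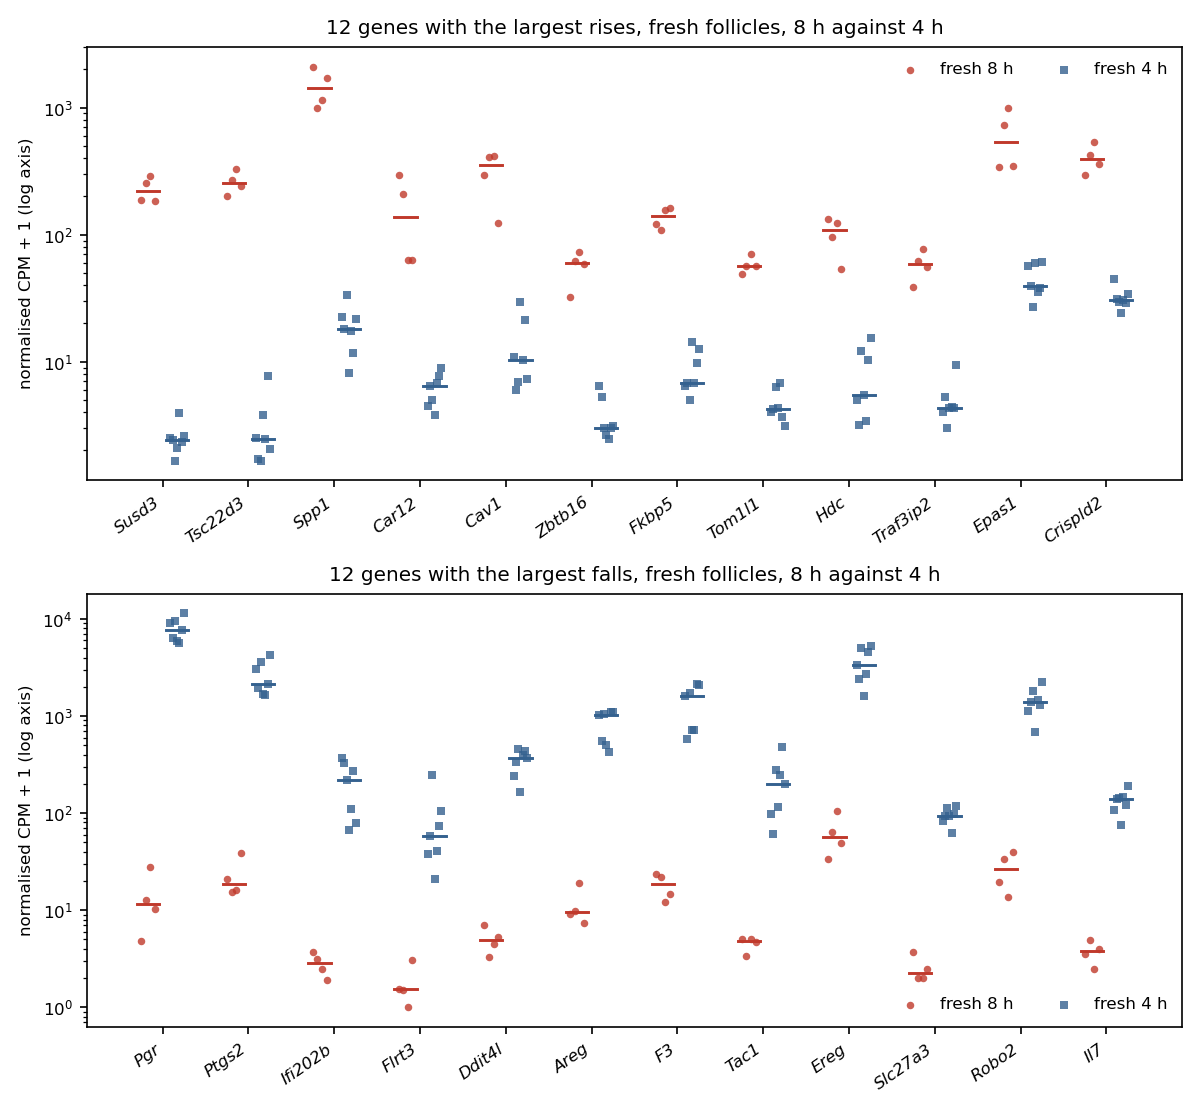
Normalised CPM plus 1 on a log axis for the 12 genes with the largest rises (upper panel) and the 12 with the largest falls (lower panel), chosen among called genes whose groups do not overlap. Circles are the 4 fresh follicles at 8 h, squares the 7 at 4 h, and bars the medians; Susd3 has 184 to 289 CPM at 8 h and 0.661 to 2.92 CPM at 4 h, and Pgr 3.84 to 27.02 CPM at 8 h and 5686 to 11436 CPM at 4 h.

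The steepest falls took abundant transcripts of the 4 h follicles to low levels. Pgr, the progesterone receptor, had 3.84, 11.9, 27.02 and 9.30 CPM at 8 h, against 5686 to 11436 CPM (median 7701) at 4 h. Each 8 h follicle was at a small fraction of the lowest 4 h follicle (log2 fold change -9.35 ± 0.58, adjusted p = 2.41e-07). Pgr lies at chr9:8899833-8968611, plus strand. Ptgs2, the inducible cyclooxygenase that starts prostaglandin synthesis, had 20.1, 14.5, 15.01 and 37.7 CPM at 8 h, against 1654 to 4242 CPM (median 2145) at 4 h, with 8 h replicate 4 the highest of its group and no overlap (log2 fold change -6.88 ± 0.46, adjusted p = 2.86e-07). It lies at chr1:150100031-150108227, plus strand. The 300 bases around the start of transcription (250 before and 50 after, from RefSeq on GRCm38.p6) are shown for the first 2 genes of each direction. They run in the direction of the gene, with capitals for any match to 6 short motifs named below. The windows are chr13:49248245-49248544, chrX:140542619-140542918, chr9:8899583-8899882 and chr1:150099781-150100080.
Susd3: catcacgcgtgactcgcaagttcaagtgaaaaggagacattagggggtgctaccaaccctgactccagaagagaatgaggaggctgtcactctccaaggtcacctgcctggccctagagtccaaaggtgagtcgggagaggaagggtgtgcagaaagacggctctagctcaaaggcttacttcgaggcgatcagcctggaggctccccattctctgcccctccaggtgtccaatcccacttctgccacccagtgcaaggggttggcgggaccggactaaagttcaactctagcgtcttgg
Tsc22d3: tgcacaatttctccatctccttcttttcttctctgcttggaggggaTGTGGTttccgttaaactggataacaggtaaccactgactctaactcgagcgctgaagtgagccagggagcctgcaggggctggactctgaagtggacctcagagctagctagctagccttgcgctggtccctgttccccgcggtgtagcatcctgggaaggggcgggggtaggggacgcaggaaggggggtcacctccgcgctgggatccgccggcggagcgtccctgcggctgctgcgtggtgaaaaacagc
Pgr: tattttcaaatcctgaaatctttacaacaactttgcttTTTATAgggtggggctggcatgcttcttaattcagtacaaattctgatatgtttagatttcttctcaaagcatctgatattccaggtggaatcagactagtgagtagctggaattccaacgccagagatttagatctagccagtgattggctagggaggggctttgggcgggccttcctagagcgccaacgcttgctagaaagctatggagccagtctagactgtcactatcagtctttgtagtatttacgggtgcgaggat
Ptgs2: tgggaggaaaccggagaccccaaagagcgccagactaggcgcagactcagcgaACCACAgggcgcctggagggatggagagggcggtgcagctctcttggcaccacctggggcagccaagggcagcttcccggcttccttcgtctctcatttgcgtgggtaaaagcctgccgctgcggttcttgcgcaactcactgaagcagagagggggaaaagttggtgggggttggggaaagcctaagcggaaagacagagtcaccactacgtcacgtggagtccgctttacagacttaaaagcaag

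The motifs were searched on both strands: the cAMP response element TGACGTCA, the AP-1 element TGAGTCA, the NR4A element AAAGGTCA, the RUNX core TGTGGT, a steroid receptor half-site TGTTCT and the TATA box TATAAA. No motif contains another. The Tsc22d3 window, 1 of 3 that RefSeq gives the gene, held a RUNX core starting 204 bases before the start, and the Ptgs2 window held 1 on the opposite strand 197 bases before it. The Pgr window held TATAAA on the opposite strand 212 bases before the start, and the Susd3 window held none of the 6. Among promoters of genes tested, the RUNX core was in 13.8% (812 of 5874 with a window), in 17.5% of those that rose at least 2-fold and in 11.2% of those that fell as far. The cAMP response element was in 3.66% of the tested, 2.82% of the risen and 4.52% of the fallen. For the same 3 sets, TATAAA was in 8.63%, 8.74% and 12.3%. AP-1 was in 4.38%, 5.03% and 4.1%, and the NR4A element in 0.919%, 1.15% and 1.27%. The half-site was in 13.1%, 13.7% and 14.3%. In these 3 sets a gene counted if any of its windows held the motif. Taken window by window and not by gene, the shares over all 32851 windows of the table were 16.8% for the RUNX core, 1.79% for the cAMP element, 13.6% for TATAAA, 5.2% for AP-1, 1.51% for the NR4A element and 19% for the half-site. These are matches of letters, untested for a difference.

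The other steep falls differed more in how even the 4 h follicles were. F3, tissue factor, which starts blood coagulation, had 22.8, 21.2, 11.01 and 13.6 CPM at 8 h, against 582 to 2142 CPM (median 1623) at 4 h (log2 fold change -6.29 ± 0.55, adjusted p = 4.06e-06). Robo2, a receptor for SLIT guidance cues, had 18.6, 32.6, 12.5 and 38.3 CPM at 8 h, against 686 to 2214 CPM (median 1402) at 4 h (log2 fold change -5.78 ± 0.43, adjusted p = 5.25e-07). Both kept all 8 h follicles under all 4 h follicles. Tac1, the precursor of substance P, had 2.40 to 4.02 CPM at 8 h and 59.6 to 477 CPM at 4 h (log2 fold change -5.91 ± 0.69). Ddit4l, an inhibitor of mTOR signalling, had 2.27 to 6.03 CPM at 8 h and 163 to 457 CPM at 4 h (-6.40 ± 0.39). Il7, a lymphocyte growth factor, had 1.50 to 3.91 CPM at 8 h and 74.4 to 190.3 CPM at 4 h (-5.47 ± 0.30). Slc27a3, of the fatty acid transport protein family, had 1.001 to 2.74 CPM at 8 h and 60.8 to 117 CPM at 4 h (-5.83 ± 0.30). Flrt3, an adhesion protein, had 0 to 2.05 CPM at 8 h and 19.99 to 245 CPM at 4 h (-6.49 ± 0.98). Ifi202b, an interferon-inducible gene, had 0.930 to 2.74 CPM at 8 h and 65.5 to 369 CPM at 4 h (-6.73 ± 0.73); it belongs to a family of close copies, so its counts are uncertain.

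Among the most abundant genes, several granulosa products fell. Inha, the inhibin alpha subunit, had 9962, 10222, 11717 and 13892 CPM at 8 h, against 35089 to 51754 CPM (median 40178) at 4 h. It remained abundant, yet no 8 h follicle reached the lowest 4 h follicle (log2 fold change -1.86 ± 0.15, adjusted p = 1.47e-07). Inhba, the beta A subunit of inhibin A and activin A, had 399, 808, 413 and 786 CPM at 8 h, against 11637 to 20954 CPM (median 20018) at 4 h (log2 fold change -4.94 ± 0.28, adjusted p = 4.9e-09). Both subunits of inhibin A were thus lower in each 8 h follicle. Slc7a8, a neutral amino acid transporter, had 9427, 13832, 13587 and 13788 CPM at 8 h, against 27569 to 46179 CPM (median 33803) at 4 h, lowest in replicate 1 (log2 fold change -1.47 ± 0.18, adjusted p = 8.49e-06). Malat1, a nuclear noncoding RNA, had 6083, 9939.7, 7580.1 and 9342 CPM at 8 h, against 18912 to 41098 CPM (median 26033) at 4 h (log2 fold change -1.75 ± 0.21, adjusted p = 5.74e-06). None of the 4 overlapped between the times.

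The list of EGF-like ligands and receptors split by role: 10 of 15 listed members were tested, of which 2 rose and 5 fell (median log2 fold change -0.67). By total counts 2 rose and 4 fell, with a median of -0.04. Areg, amphiregulin, had 8.22, 8.71, 18.01 and 6.32 CPM at 8 h, against 427 to 1102 CPM (median 1034) at 4 h (log2 fold change -6.39 ± 0.46, adjusted p = 4.83e-07). Ereg, epiregulin, had 32.7, 62.5, 104 and 47.6 CPM at 8 h, against 1592 to 5279 CPM (median 3381) at 4 h (log2 fold change -5.87 ± 0.49, adjusted p = 2.2e-06). Btc, betacellulin, had 64.7, 84.9, 90.6 and 96.7 CPM at 8 h, against 2015 to 4162 CPM (median 3425) at 4 h (log2 fold change -5.31 ± 0.23, adjusted p = 3.74e-10). All 3 ligands were lower in each 8 h follicle than in any 4 h follicle, and Epgn, epigen, fell by less, with 0.186 to 2.65 CPM at 8 h and 2.16 to 23.3 CPM at 4 h and overlap (log2 fold change -2.69 ± 0.68, adjusted p = 0.00513). The receptors moved the other way. Egfr, through which these ligands signal, had 59.2, 98.2, 73.05 and 96.7 CPM at 8 h, against 13.9 to 34.9 CPM (median 30.9) at 4 h (log2 fold change 1.64 ± 0.23, adjusted p = 3.03e-05). Its partner Erbb2 had 63.7, 50.6, 47.03 and 48.5 CPM at 8 h, against 20.1 to 39.4 CPM (median 27.4) at 4 h (log2 fold change 0.89 ± 0.19, adjusted p = 0.00135). Neither receptor overlapped between the times.

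Of the cAMP feedback genes, 12 of 17 listed members were tested, of which 0 rose and 7 fell (median log2 fold change -0.67). By total counts 2 rose and 4 fell, with a median of -0.02. At an unadjusted p under 0.05, 1 was higher by edgeR, DESeq2 called 0 higher, and without 8 h replicate 1, 1 rose and 5 fell. Sik1, a kinase that cAMP induces and that holds back CREB co-activators, had 12.8, 27.6, 37.02 and 24.9 CPM at 8 h, against 254 to 776 CPM (median 365) at 4 h (log2 fold change -4.21 ± 0.47, adjusted p = 1.99e-05). Crem, whose short forms repress cAMP targets, had 7.49, 9.46, 17.5 and 5.76 CPM at 8 h, against 66.1 to 156 CPM (median 107) at 4 h (log2 fold change -3.52 ± 0.33, adjusted p = 1.11e-06). Pde10a, a cyclic nucleotide phosphodiesterase, had 3.47 to 8.005 CPM at 8 h and 15.4 to 40.3 CPM at 4 h (log2 fold change -2.14 ± 0.32, adjusted p = 4.34e-05). These 3 did not overlap between the times.

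Of the immediate early genes, 18 of 25 listed members were tested, of which 1 rose and 12 fell (median log2 fold change -1.18). By total counts 4 rose and 9 fell, with a median of -0.53. The single riser was not called without 8 h replicate 3, and 2 genes rose without 8 h replicate 1 or 4 h replicate 1. Nr4a1, an orphan nuclear receptor, had 91.5, 71.3, 137 and 90.9 CPM at 8 h, against 2235 to 5200.4 CPM (median 3592) at 4 h (log2 fold change -5.25 ± 0.34, adjusted p = 5.22e-08). Its relative Nr4a3 had 1.83, 4.42, 7.50 and 4.09 CPM at 8 h, against 53.1 to 209 CPM (median 82.6) at 4 h (log2 fold change -4.76 ± 0.57, adjusted p = 3.58e-05). Egr1, a zinc finger factor, had 1764, 1682, 2238 and 2036 CPM at 8 h, against 4434 to 8286 CPM (median 5914) at 4 h (log2 fold change -1.64 ± 0.19, adjusted p = 3.97e-06). Its relative Egr3 had 2.65 to 5.84 CPM at 8 h and 16.5 to 31.2 CPM at 4 h (log2 fold change -2.55 ± 0.26, adjusted p = 1.25e-06). None of the 4 overlapped between the times. Of the inhibitors that MAPK signalling induces, 9 of 14 listed members were tested, of which 2 rose and 5 fell (median log2 fold change -1.42). By total counts 2 rose and 4 fell, with a median of -0.79. Spry2, a Sprouty inhibitor of receptor tyrosine kinase signalling, had 0 to 2.50 CPM at 8 h and 14.6 to 60.96 CPM at 4 h (log2 fold change -4.66 ± 0.59, adjusted p = 3.48e-05). Dusp10, a phosphatase of p38 and JNK, had 3.29 to 9.51 CPM at 8 h and 22.3 to 91.2 CPM at 4 h (log2 fold change -3.10 ± 0.45, adjusted p = 9.46e-05). Dusp6, a phosphatase of ERK, had 29.04, 20.2, 37.5 and 80.1 CPM at 8 h, against 61.3 to 181 CPM (median 119.6) at 4 h, with replicate 4 inside the 4 h range (log2 fold change -1.56 ± 0.37, adjusted p = 0.00392). Of the 2 risers in that list, 1 remained without 8 h replicate 3.

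**Figure D2:**
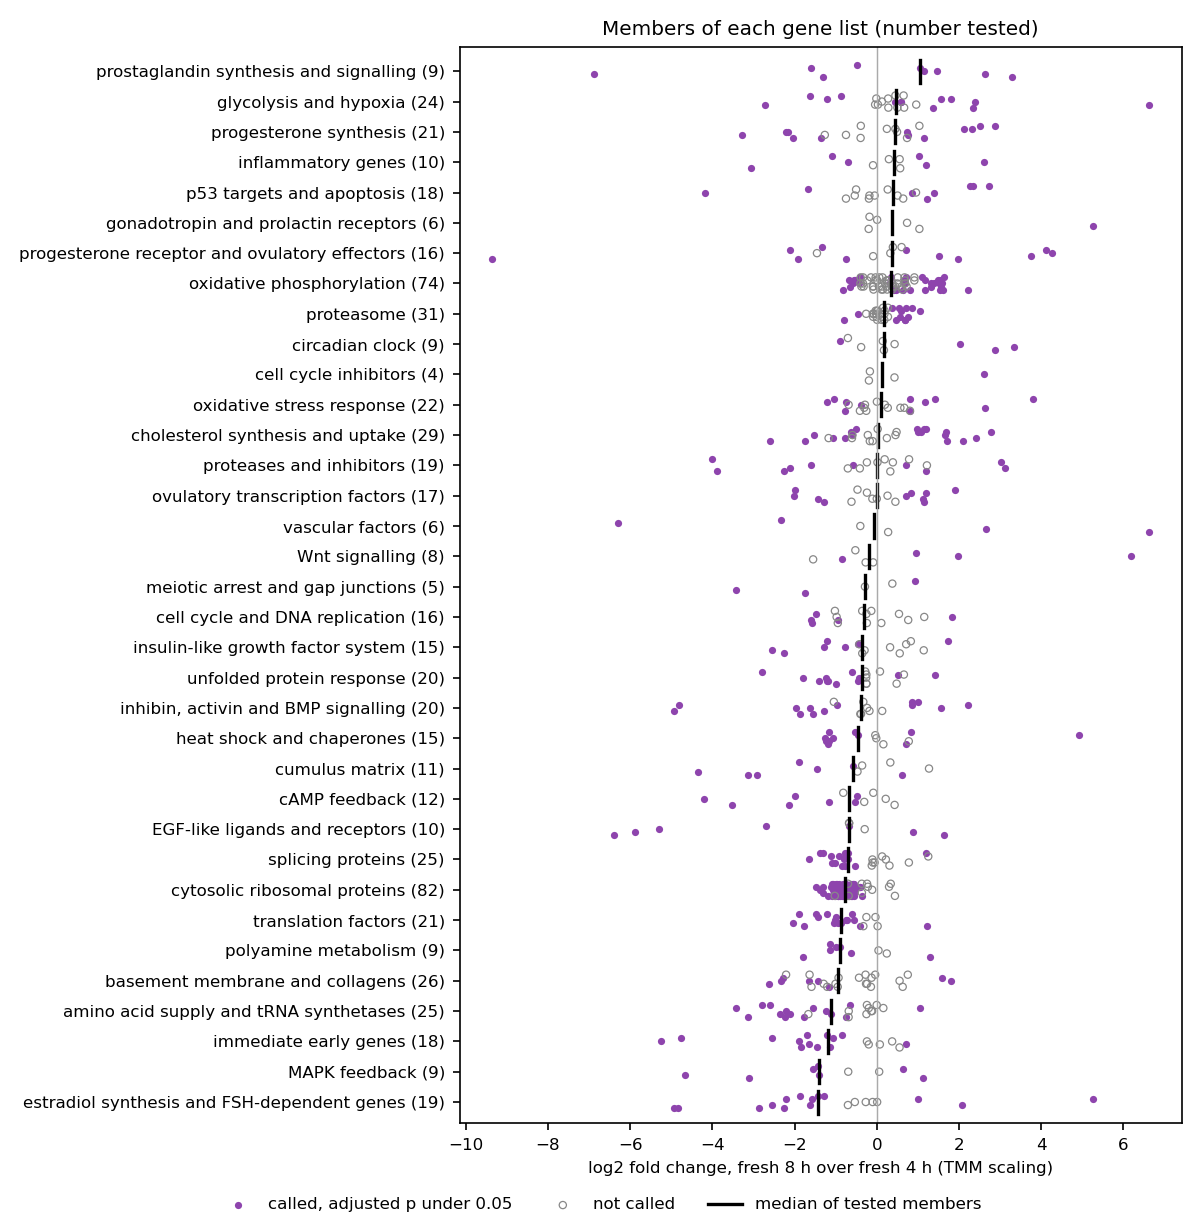
Log2 fold changes, 8 h over 4 h with TMM scaling, of the tested members of each gene list with 4 or more tested members, ordered by the list's median. Filled points are called members, open points members that were not called and black bars medians; estradiol and FSH-dependent genes, MAPK feedback genes and immediate early genes have the lowest medians (-1.44, -1.42 and -1.18), which are -0.81, -0.79 and -0.53 by total counts.

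Of the progesterone receptor list, 16 of 20 listed members were tested, of which 6 rose and 5 fell (median log2 fold change 0.36). By total counts 10 rose and 3 fell, with a median of 0.99. Pgr itself fell while Zbtb16, Fkbp5 and Epas1, with the values above, were its largest risers. Adamts1, a protease of the matrix proteoglycan versican, had 587, 818, 644 and 449 CPM at 8 h, against 266 to 716 CPM (median 521) at 4 h and was not called (log2 fold change 0.33 ± 0.23, adjusted p = 0.236), though by total counts it was called higher (log2 fold change 0.97, adjusted p = 0.000503). Hif1a, the hypoxia-inducible factor HIF-1α, had 1807, 2896, 1541 and 1721 CPM at 8 h, against 2276 to 3921 CPM (median 3404) at 4 h, with overlap (log2 fold change -0.76 ± 0.19, adjusted p = 0.00328). Its call rested on the scaling, with a log2 fold change of -0.13 by total counts (adjusted p = 0.544). Pparg, a nuclear receptor of fatty acid metabolism, had 21.7 to 67.5 CPM at 8 h and 56.1 to 179 CPM at 4 h (log2 fold change -1.34 ± 0.35, adjusted p = 0.00648).

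Of the prostaglandin genes, 9 of 14 listed members were tested, of which 5 rose and 4 fell (median log2 fold change 1.06). By total counts 5 rose and 2 fell, with a median of 1.69. Leaving out 1 library at a time put the TMM median at 0.26 to 1.16, the lowest value without 4 h replicate 4, when 8 members were tested. Upstream of Ptgs2, Pla2g4a, the phospholipase that frees arachidonic acid, had 11.3, 16.7, 7.004 and 32.5 CPM at 8 h, against 33.3 to 81.7 CPM (median 45.6) at 4 h (log2 fold change -1.61 ± 0.38, adjusted p = 0.00305). Ptgs1, the constitutive cyclooxygenase, had 7.85, 22.7, 33.5 and 8.18 CPM at 8 h, against 0 to 7.42 CPM (median 0.487) at 4 h (log2 fold change 3.29 ± 0.74, adjusted p = 0.00274), and 4 h replicate 7 was far above the rest of its group. Ptges, a prostaglandin E synthase, had 13.3 to 19.7 CPM at 8 h and 3.18 to 10.8 CPM at 4 h (log2 fold change 1.16 ± 0.27, adjusted p = 0.00195). Slco2a1, which carries prostaglandins into cells for breakdown, had 27.03, 81.3, 111 and 66.8 CPM at 8 h, against 9.92 to 13.9 CPM (median 10.96) at 4 h (log2 fold change 2.64 ± 0.28, adjusted p = 2.27e-06). In each of these 4 the groups stood apart, the phospholipase lower at 8 h and the other 3 higher.

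Of the cumulus matrix genes, 11 of 16 listed members were tested, of which 1 rose and 6 fell (median log2 fold change -0.59). By total counts 3 rose and 5 fell, with a median of 0.06. Tnfaip6, which links proteins to hyaluronan, had 93.9, 179, 197 and 67.3 CPM at 8 h, against 1219 to 4139 CPM (median 3385) at 4 h (log2 fold change -4.34 ± 0.51, adjusted p = 3.68e-05). Ugdh, which makes the sugar precursor of hyaluronan, had 69.04, 99.7, 93.6 and 82.2 CPM at 8 h, against 405 to 919 CPM (median 688) at 4 h (log2 fold change -2.92 ± 0.23, adjusted p = 8.95e-08). Has2, the hyaluronan synthase of cumulus cells, was low throughout, at 0, 0.883, 0.500 and 3.16 CPM at 8 h, against 4.63 to 18.02 CPM (median 8.62) at 4 h (log2 fold change -3.12 ± 0.64, adjusted p = 0.00105). These 3 fell without overlap. Ptx3, which crosslinks the matrix, had 147, 194, 109 and 757 CPM at 8 h, against 36.4 to 339.9 CPM (median 98.8) at 4 h and was not called (log2 fold change 1.27 ± 0.73, adjusted p = 0.176), with replicate 4 far above the other 8 h follicles; total counts called it higher (1.95, adjusted p = 0.0435). Vcan, the matrix proteoglycan versican, was not called either at 11010, 19268, 18522 and 16228 CPM at 8 h, against 11711 to 28944 CPM (median 20942) at 4 h (log2 fold change -0.36 ± 0.21, adjusted p = 0.169), and its sign turned under total counts (0.29). The single riser of the list, Hyal2, was not called without 8 h replicate 1 or without 8 h replicate 4.

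Of the proteases and their inhibitors, 19 of 24 listed members were tested, of which 4 rose and 6 fell (median log2 fold change 0.02), beside 26.2% higher and 24% lower among all genes tested. By total counts 9 rose and 2 fell, with a median of 0.66. Plau, urokinase, had 925, 794, 895 and 515 CPM at 8 h, against 8066 to 16662 CPM (median 10314) at 4 h (log2 fold change -3.88 ± 0.26, adjusted p = 3.02e-08), so that each 8 h follicle was far below each 4 h follicle. Serpina3a, a serine protease inhibitor from a cluster of close copies whose counts are uncertain, had 4.80 to 21.01 CPM at 8 h and 24.4 to 310.0 CPM at 4 h (log2 fold change -4.01 ± 0.80, adjusted p = 0.00199). Mmp11 and Mmp19, matrix metalloproteinases, both rose. Mmp11 had 35.6, 15.9, 15.01 and 28.3 CPM at 8 h, against 0 to 7.77 CPM (median 2.65) at 4 h (log2 fold change 3.12 ± 0.53, adjusted p = 0.00027). Mmp19 had 17.2, 16.2, 19.5 and 13.6 CPM at 8 h, against 0 to 5.55 CPM (median 1.32) at 4 h (log2 fold change 3.01 ± 0.50, adjusted p = 0.000176). These 4 genes did not overlap between the times. Leaving out 8 h replicate 2 left 2 risers, and leaving out 8 h replicate 1 left 3 fallers.

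Of the progesterone synthesis genes, 21 of 22 listed members were tested, of which 7 rose and 5 fell (median log2 fold change 0.45), beside the same shares of all genes. By total counts 12 rose and 5 fell, with a median of 1.08. Star, which carries cholesterol into mitochondria, had 1391, 3838, 4031 and 1079 CPM at 8 h, against 4666 to 17478 CPM (median 10584) at 4 h. The 8 h follicles formed 2 pairs, replicates 2 and 3 high and replicates 1 and 4 low, all under the lowest 4 h follicle (log2 fold change -2.04 ± 0.53, adjusted p = 0.00852). Cyp11a1, which cuts cholesterol to pregnenolone, had 1531, 3784, 2758 and 999 CPM at 8 h, against 1799 to 10118 CPM (median 3788) at 4 h with the same pairs, and was not called (log2 fold change -1.27 ± 0.57, adjusted p = 0.0907); without 4 h replicate 4 it was (-1.43, adjusted p = 0.0456). Hsd3b1, the next enzyme, had 7101, 6867, 6103 and 10831 CPM at 8 h, against 5411 to 13599 CPM (median 10255) at 4 h and was not called (log2 fold change -0.39 ± 0.22, adjusted p = 0.157); it has close copies, so its counts are uncertain. Its sign turned under total counts (0.26), while without 8 h replicate 4 or 4 h replicate 4 it was called lower (-0.59, adjusted p = 0.0438, and -0.51, adjusted p = 0.0278).

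Among supply genes of the same pathway, Scarb1, the receptor for HDL cholesterol, had 702, 727, 785 and 456 CPM at 8 h, against 4631 to 9623 CPM (median 5841) at 4 h (log2 fold change -3.28 ± 0.24, adjusted p = 3.81e-08). Fdx1, the ferredoxin that feeds electrons to Cyp11a1, had 1074, 922, 1221 and 778 CPM at 8 h, against 2968 to 5582 CPM (median 4728) at 4 h (log2 fold change -2.22 ± 0.19, adjusted p = 2.13e-07). Its reductase went the other way: Fdxr had 104, 87.6, 99.1 and 119.6 CPM at 8 h, against 11.2 to 37.5 CPM (median 18.8) at 4 h (log2 fold change 2.32 ± 0.25, adjusted p = 2.71e-06). Tspo, an outer membrane protein of mitochondria that binds cholesterol, had 86.03, 50.9, 37.5 and 64.9 CPM at 8 h, against 6.66 to 16.1 CPM (median 8.48) at 4 h (log2 fold change 2.50 ± 0.26, adjusted p = 1.78e-06). Stard5, a cytosolic sterol carrier, had 16.2 to 46.4 CPM at 8 h and 1.08 to 7.38 CPM at 4 h (log2 fold change 2.88 ± 0.42, adjusted p = 6.36e-05). In all 5 the 8 h and the 4 h follicles stood apart.

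Among receptors, Fshr showed the clearest change. Fshr, the FSH receptor, had 21.9, 36.2, 36.02 and 35.3 CPM at 8 h, against 0 to 1.95 CPM (median 0.671) at 4 h, with 669 counts summed at 8 h and 11 at 4 h (log2 fold change 5.26 ± 0.38, adjusted p = 4.46e-08). Replicate 1 was the lowest of the 8 h follicles and still above each 4 h follicle. Lhcgr, the receptor for luteinizing hormone and hCG, had 289.7, 270.1, 428 and 151 CPM at 8 h, against 51.4 to 263 CPM (median 73.8) at 4 h and was not called (log2 fold change 1.04 ± 0.51, adjusted p = 0.118), while total counts called it higher (1.72, adjusted p = 0.00677). Over the 8 listed receptors 6 were tested, and Fshr was the 1 member called, while 3 rose by total counts; without 4 h replicate 3, 2 rose.

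Estradiol synthesis and FSH-dependent genes were lower in most tested members: 19 of 22 listed members were tested, of which 3 rose and 11 fell (median log2 fold change -1.44). By total counts 3 rose and 10 fell, with a median of -0.81. Cyp19a1, aromatase, which makes estradiol, had 0.548, 1.64, 0 and 2.79 CPM at 8 h, against 5.48 to 18.01 CPM (median 10.4) at 4 h (log2 fold change -2.86 ± 0.54, adjusted p = 0.000441). Sult1e1, which inactivates estradiol by sulfation, had 309, 213, 352 and 206 CPM at 8 h, against 4903 to 10781 CPM (median 7544) at 4 h (log2 fold change -4.85 ± 0.26, adjusted p = 3.31e-09). Making and inactivating enzyme were thus both lower, without overlap between the times. Nr5a2, a nuclear receptor needed for ovulation, had 47.5 to 51.5 CPM at 8 h and 86.6 to 200.1 CPM at 4 h (log2 fold change -1.44 ± 0.20, adjusted p = 2.64e-05). Ccnd2, the granulosa cyclin that FSH induces, had 28.5 to 41.03 CPM at 8 h and 90.5 to 170.4 CPM at 4 h (log2 fold change -1.58 ± 0.20, adjusted p = 8.87e-06). Fshr stood against the list's direction.

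Of the inhibin, activin and BMP genes, 20 of 28 listed members were tested, of which 5 rose and 8 fell (median log2 fold change -0.39). By total counts 7 rose and 6 fell, with a median of 0.23. Besides both inhibin subunits, Bmp2, a bone morphogenetic protein, had 29.6, 13.1, 8.005 and 10.8 CPM at 8 h, against 285 to 590.4 CPM (median 516) at 4 h (log2 fold change -4.80 ± 0.41, adjusted p = 1.73e-06). Fstl3, which binds and blocks activin, had 17.4, 15.02, 9.01 and 7.62 CPM at 8 h, against 1.46 to 4.44 CPM (median 1.99) at 4 h (log2 fold change 2.23 ± 0.34, adjusted p = 6.36e-05). Neither overlapped between the times. Among gap junction and meiotic arrest genes, 5 of 12 listed members were tested, of which 1 rose and 2 fell (median log2 fold change -0.29), and without 4 h replicate 1, 2 rose. By total counts 2 rose and 2 fell, with a median of 0.34. Gja1, connexin 43, which couples granulosa cells, had 1039.5, 1299, 615 and 1555 CPM at 8 h, against 6976 to 16961 CPM (median 12267) at 4 h (log2 fold change -3.43 ± 0.30, adjusted p = 7.19e-07). Npr2, the receptor whose cGMP holds the oocyte in arrest, had 1.50 to 3.03 CPM at 8 h and 6.47 to 11.1 CPM at 4 h (log2 fold change -1.76 ± 0.28, adjusted p = 0.000101).

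Of the ovulatory transcription factors, 17 of 22 listed members were tested, of which 6 rose and 4 fell (median log2 fold change -0.001), and without 8 h replicate 4, 3 rose. By total counts 8 rose and 3 fell, with a median of 0.63. Of all genes tested, 26.2% rose and 24% fell by TMM. The RUNX factors, which follow luteinizing hormone in granulosa cells, went apart. Runx1 had 393, 442, 383 and 632 CPM at 8 h, against 1697 to 2167 CPM (median 1804) at 4 h (log2 fold change -2.02 ± 0.16, adjusted p = 1.17e-07). Runx2 had 1613, 2496, 2366 and 1649.5 CPM at 8 h, against 522 to 1231 CPM (median 901) at 4 h (log2 fold change 1.20 ± 0.22, adjusted p = 0.000415). Neither overlapped between the times. Tead1, a partner of the YAP co-activator, had 22.7 to 35.6 CPM at 8 h and 93.8 to 135 CPM at 4 h (log2 fold change -1.995 ± 0.17, adjusted p = 2.23e-07).

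Of the cholesterol synthesis and uptake genes, 29 of 30 listed members were tested, of which 11 rose and 8 fell (median log2 fold change 0.02). By total counts 16 rose and 3 fell, with a median of 0.66. Of all genes tested, 26.2% rose and 24% fell by TMM. The risers included Mvk, Lss and Ebp, enzymes of the pathway whose groups did not overlap between the times. Mvk, mevalonate kinase, had 9.21 to 16.4 CPM at 8 h and 0.661 to 4.38 CPM at 4 h (log2 fold change 2.78 ± 0.42, adjusted p = 5.01e-05). Lss, lanosterol synthase, had 53.2 to 69.6 CPM at 8 h and 6.61 to 32.9 CPM at 4 h (log2 fold change 1.71 ± 0.30, adjusted p = 0.00027). Ebp, a sterol isomerase, had 11.9 to 16.7 CPM at 8 h and 0.555 to 6.71 CPM at 4 h (log2 fold change 2.41 ± 0.38, adjusted p = 7.93e-05). Leaving out 8 h replicate 1 left 4 fallers and leaving out 8 h replicate 4 left 5 fallers.

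Of the glycolysis and hypoxia genes, 24 of 27 listed members were tested, of which 9 rose and 4 fell (median log2 fold change 0.48). By total counts 19 rose and 3 fell, with a median of 1.08. Adm, the vasodilator peptide adrenomedullin, had 25.2, 33.8, 37.5 and 7.81 CPM at 8 h, against 0 to 0.671 CPM (median 0) at 4 h; the 4 h libraries held 3 counts in all, so the size of its rise is poorly bounded (adjusted p = 4.23e-07). Bnip3, a mitophagy receptor that hypoxia induces, had 250.1, 365, 448 and 168 CPM at 8 h, against 16.4 to 123 CPM (median 61.2) at 4 h (log2 fold change 2.38 ± 0.52, adjusted p = 0.00315). Angptl4, a secreted inhibitor of lipoprotein lipase, belongs to the vascular factors below and not to this list. Angptl4 had 266, 171, 287 and 198 CPM at 8 h, against 23.9 to 49.97 CPM (median 35.9) at 4 h (log2 fold change 2.66 ± 0.22, adjusted p = 1.32e-07). All 3 were higher at 8 h in each follicle. Glycolytic enzymes of the glycolysis and hypoxia list went both ways. Pfkl (log2 fold change 1.563 ± 0.338, adjusted p = 0.00217) was higher without overlap. Hk1 (1.362, adjusted p = 0.0036), Tpi1 (0.599, adjusted p = 0.021), Gpi1 (0.581, adjusted p = 0.0169) and Pkm (0.432, adjusted p = 0.0152) were higher with overlap. Pfkp (-1.63 ± 0.193, adjusted p = 5.71e-06) and Gapdh (-1.206 ± 0.135, adjusted p = 3.28e-06) were lower without overlap, and Hk2 (-2.714 ± 0.547, adjusted p = 0.000693) with overlap. Ldha (-0.012 ± 0.171, adjusted p = 0.959) and Aldoa (-0.041 ± 0.125, adjusted p = 0.807), also glycolytic, were not called. Thbs1, thrombospondin 1, which inhibits vessel growth, had 758, 337, 232 and 784 CPM at 8 h, against 1569 to 4587 CPM (median 2218) at 4 h, lower without overlap (log2 fold change -2.34 ± 0.43, adjusted p = 0.000879). Of 20 vascular factors listed, 6 were tested, 2 rose and 2 fell, Adm, Angptl4, F3 and Thbs1 being those called.

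Of the oxidative stress list, 22 of 23 listed members were tested, of which 6 rose and 5 fell (median log2 fold change 0.10), with 2 fallers without 8 h replicate 4 and 3 without 8 h replicate 1, 4 h replicate 1 or 4 h replicate 6. By total counts 11 rose and 2 fell, with a median of 0.74. The TMM counts lay near the shares of all genes tested, 26.2% higher and 24% lower. Txnip, which inhibits thioredoxin, had 31.96, 28.01, 15.5 and 24.5 CPM at 8 h, against 0 to 7.22 CPM (median 0.974) at 4 h (log2 fold change 3.80 ± 0.50, adjusted p = 2.41e-05). Cat, catalase, had 23.99 to 40.9 CPM at 8 h and 0.661 to 8.62 CPM at 4 h (log2 fold change 2.64 ± 0.36, adjusted p = 2.69e-05). Of the clock genes, 9 of 18 listed members were tested, of which 3 rose and 1 fell (median log2 fold change 0.17), the 1 faller being joined by 1 or 2 others without 8 h replicate 2, 8 h replicate 3, 4 h replicate 2 or 4 h replicate 4. By total counts 5 rose and 0 fell (0 at an unadjusted p under 0.05), with a median of 0.81. Nr1d1 (REV-ERBα), a repressor of the clock, had 22.01 to 31.6 CPM at 8 h and 0.661 to 7.79 CPM at 4 h (log2 fold change 2.87 ± 0.36, adjusted p = 8.46e-06), and its activating counterpart Rora had 78.5, 125, 137 and 71.03 CPM at 8 h, against 1.95 to 19.5 CPM (median 9.96) at 4 h (log2 fold change 3.33 ± 0.37, adjusted p = 1.03e-05). Of p53 targets and apoptosis genes, 18 of 25 listed members were tested, of which 6 rose and 2 fell (median log2 fold change 0.39). By total counts 10 rose and 2 fell, with a median of 1.01. Bcl2l1, which encodes the survival protein BCL-XL, had 32.1, 46.2, 55.5 and 29.2 CPM at 8 h, against 3.59 to 9.44 CPM (median 5.29) at 4 h (log2 fold change 2.74 ± 0.26, adjusted p = 6.27e-07). Phlda3, a p53 target that restrains AKT, had 7.62 to 12.4 CPM at 8 h and 0 to 3.35 CPM at 4 h (log2 fold change 2.35 ± 0.42, adjusted p = 0.000267). Groups did not overlap in any of these 6 genes.

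Of the cell cycle genes, 16 of 28 listed members were tested, of which 1 rose and 4 fell (median log2 fold change -0.30). By total counts 5 rose and 1 fell, with a median of 0.33. Leaving out 1 library at a time put the TMM median at -0.99 to -0.04, lowest without 8 h replicate 4 and nearest 0 without 8 h replicate 2. The single riser was lost without 8 h replicate 1 and joined by others without 4 h replicate 2 or 4 h replicate 4, and the fallers numbered 7 without 8 h replicate 4. Of 10 listed cell cycle inhibitors, 4 were tested. Cdkn2d, which encodes p19 INK4D, was the 1 called, with 17.9, 19.1, 21.01 and 21.6 CPM at 8 h, against 2.16 to 4.997 CPM (median 2.92) at 4 h (log2 fold change 2.61 ± 0.24, adjusted p = 5.23e-07), while 2 inhibitors rose by total counts. Of the insulin-like growth factor genes, 15 of 16 listed members were tested, of which 1 rose and 6 fell (median log2 fold change -0.35), and without 4 h replicate 4, 3 rose. By total counts 2 rose and 3 fell, with a median of 0.27. Igf1, which supports FSH action in granulosa cells, had 49.3, 32.9, 20.01 and 70.1 CPM at 8 h, against 93.8 to 377 CPM (median 186) at 4 h (log2 fold change -2.26 ± 0.49, adjusted p = 0.00281). Its receptor Igf1r had 10.6, 14.3, 14.5 and 23.4 CPM at 8 h, against 64.4 to 116 CPM (median 91.3) at 4 h (log2 fold change -2.56 ± 0.23, adjusted p = 3.52e-07). Ligand and receptor were both lower in each 8 h follicle. Igfbp5, which binds the ligand, was higher, at 112 to 189 CPM at 8 h and 14.4 to 85.5 CPM at 4 h (log2 fold change 1.73 ± 0.36, adjusted p = 0.00152).

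Most inflammatory genes were too low to test, 10 of 30 passing the filter, and 3 of these rose and 3 fell, while 6 rose and 1 fell by total counts. Of all genes tested, 26.2% rose and 24% fell by TMM. Il1r1, the interleukin-1 receptor, had 19.9, 15.3, 12.01 and 19.7 CPM at 8 h, against 104 to 202 CPM (median 131) at 4 h (log2 fold change -3.05 ± 0.21, adjusted p = 3.18e-08). Myd88, its adaptor, had 19.5, 19.4, 13.01 and 14.9 CPM at 8 h, against 0.661 to 4.48 CPM (median 2.65) at 4 h (log2 fold change 2.61 ± 0.31, adjusted p = 4.88e-06). Nfkbia, the inhibitor of NF-kB, had 237 to 394 CPM at 8 h and 89.9 to 178 CPM at 4 h (log2 fold change 1.21 ± 0.19, adjusted p = 6.6e-05). The receptor was lower while its adaptor and the NF-kB inhibitor were higher, all without overlap. Of 21 Wnt genes 8 were tested, 3 rose and 1 fell, while 4 rose and 0 fell by total counts (0 fell at an unadjusted p under 0.05). Fzd1, a Wnt receptor, had 26.3, 75.3, 86.6 and 31.2 CPM at 8 h, against 3.98 to 23.9 CPM (median 15.4) at 4 h, with replicates 2 and 3 high and replicates 1 and 4 low, as for Star (log2 fold change 1.97 ± 0.43, adjusted p = 0.00215).

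Genes of protein synthesis were lower relative to the average gene. Of the cytosolic ribosomal proteins, 82 of 83 listed members were tested, of which 0 rose and 71 fell (median log2 fold change -0.77), against 24% of all genes lower. By total counts 3 rose and 5 fell, with a median of -0.14. At an unadjusted p under 0.05, 1 was higher by edgeR, and DESeq2 called 0 higher. Without 8 h replicate 4, 1 rose by TMM. Their summed share of counts was 2.41% ± 0.406 at 8 h (SD, n = 4) and 2.62% ± 0.388 at 4 h (n = 7), a difference within the spread (exact permutation test, adjusted p = 0.52). Their fall is one relative to most genes. Rpl26 had 121, 160.3, 116 and 114 CPM at 8 h, against 217 to 542 CPM (median 251) at 4 h (log2 fold change -1.48 ± 0.31, adjusted p = 0.00168). Rpl12 had 46.4, 38.6, 43.03 and 34.4 CPM at 8 h, against 90.1 to 114 CPM (median 99.3) at 4 h (log2 fold change -1.31 ± 0.14, adjusted p = 2.01e-06). Ribosomal protein genes have many processed copies, so counts of single members are uncertain.

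Of the translation factors, 21 of 21 listed members were tested, of which 1 rose and 16 fell (median log2 fold change -0.88). By total counts 3 rose and 9 fell, with a median of -0.25. Eif4e, which binds the mRNA cap, had 118, 158, 155 and 79.2 CPM at 8 h, against 363 to 616 CPM (median 433) at 4 h (log2 fold change -1.89 ± 0.22, adjusted p = 4.51e-06). Eif4g2, an initiation factor for cap-independent translation, had 117 to 214 CPM at 8 h and 562 to 905 CPM at 4 h (log2 fold change -2.05 ± 0.19, adjusted p = 4.03e-07). Amino acid supply and tRNA synthetase genes were lower under both scalings: 25 of 30 listed members were tested, of which 1 rose and 14 fell (median log2 fold change -1.12). By total counts 4 rose and 12 fell, with a median of -0.48. Slc7a1, a carrier of cationic amino acids, had 80.6, 70.9, 71.04 and 83.9 CPM at 8 h, against 552 to 1139.5 CPM (median 805) at 4 h (log2 fold change -3.43 ± 0.19, adjusted p = 3.31e-09). Asns, asparagine synthetase, had 23.4, 19.8, 27.02 and 25.5 CPM at 8 h, against 137 to 187 CPM (median 164) at 4 h (log2 fold change -2.80 ± 0.16, adjusted p = 3.31e-09). Psat1, of serine synthesis, had 34.2 to 53.5 CPM at 8 h and 282 to 520.3 CPM at 4 h (log2 fold change -3.13 ± 0.20, adjusted p = 1.71e-08). Atf4, a factor that induces such genes on amino acid shortage, had 167, 227, 199 and 157 CPM at 8 h, against 384 to 666 CPM (median 453) at 4 h (log2 fold change -1.40 ± 0.18, adjusted p = 1.16e-05). All 6 fell without overlap.

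The unfolded protein response list held 20 tested members of 24, of which 2 rose and 10 fell (median log2 fold change -0.36). By total counts 6 rose and 7 fell, with a median of 0.28. Among the fallers were Asns and Atf4, with the values above, and Dnajb9, a co-chaperone of the endoplasmic reticulum, which had 12.4, 20.7, 11.01 and 19.9 CPM at 8 h, against 39.4 to 88.6 CPM (median 53.8) at 4 h, without overlap (log2 fold change -1.81 ± 0.26, adjusted p = 3.06e-05). Edem1, which takes misfolded proteins to degradation, was a riser, with 28.3, 24.5, 26.02 and 50.2 CPM at 8 h, against 6.47 to 21.1 CPM (median 11.2) at 4 h (log2 fold change 1.41 ± 0.28, adjusted p = 0.00062). Of the chaperones, 15 of 18 listed members were tested, of which 3 rose and 8 fell (median log2 fold change -0.46). By total counts 7 rose and 5 fell, with a median of 0.17. Hsp90ab1, the constitutive HSP90, had 3090.1, 3322, 2588 and 3125 CPM at 8 h, against 6606 to 7909.6 CPM (median 7289.5) at 4 h (log2 fold change -1.27 ± 0.12, adjusted p = 8.13e-07). Hspb1, a small heat shock protein, was among the risers with 11.7, 24.2, 33.5 and 9.48 CPM at 8 h, against 0 to 1.99 CPM (median 0) at 4 h (log2 fold change 4.92 ± 0.63, adjusted p = 1.93e-05; 8 counts in all at 4 h). Of the polyamine genes, 9 of 12 listed members were tested, of which 1 rose and 6 fell (median log2 fold change -0.89). By total counts 3 rose and 1 fell, with a median of -0.26. Odc1, ornithine decarboxylase, which starts the pathway, had 197, 152, 126 and 173 CPM at 8 h, against 309 to 1320 CPM (median 383) at 4 h, the highest in 4 h replicate 3 (log2 fold change -1.80 ± 0.41, adjusted p = 0.00325).

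Splicing proteins were lower relative to the average gene: 25 of 27 listed members were tested, of which 1 rose and 15 fell (median log2 fold change -0.70). By total counts 9 rose and 6 fell, with a median of -0.07. Sf3b1, of the U2 particle, had 118, 109, 104 and 104 CPM at 8 h, against 183 to 358 CPM (median 303) at 4 h (log2 fold change -1.38 ± 0.17, adjusted p = 1.01e-05). Hnrnpul1, an RNA-binding protein, was the riser, joined by another without 4 h replicate 3, with 51.7 to 109 CPM at 8 h and 26.2 to 44.97 CPM at 4 h (log2 fold change 1.19 ± 0.21, adjusted p = 0.000195). Of the proteasome genes, 31 of 31 listed members were tested, of which 11 rose and 2 fell (median log2 fold change 0.18), and without 8 h replicate 1, 1 fell. By total counts 29 rose and 0 fell (0 at an unadjusted p under 0.05), with a median of 0.81. Psma4, a subunit of the core, had 71.1, 89.3, 62.04 and 59.7 CPM at 8 h, against 23.9 to 47.4 CPM (median 33.7) at 4 h (log2 fold change 1.04 ± 0.19, adjusted p = 0.000238), while Psmd1, of the regulatory cap, had 78.7 to 89.3 CPM at 8 h and 124 to 162 CPM at 4 h (log2 fold change -0.79 ± 0.13, adjusted p = 0.000102) and was not called by total counts (-0.16, adjusted p = 0.321). Of the oxidative phosphorylation genes, 74 of 80 listed members were tested, of which 24 rose and 8 fell (median log2 fold change 0.36). By total counts 56 rose and 0 fell (0 at an unadjusted p under 0.05), with a median of 0.99. Ndufv2, of complex I, had 48.8, 53.1, 32.5 and 48.2 CPM at 8 h, against 1.98 to 13.7 CPM (median 10.1) at 4 h (log2 fold change 2.23 ± 0.28, adjusted p = 1.22e-05). The ribosomal median lay below that of all genes, and the proteasome and oxidative phosphorylation medians above it. The choice of scaling shifts all genes by nearly the same amount, so it could hardly change these places.

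**Figure D3:**
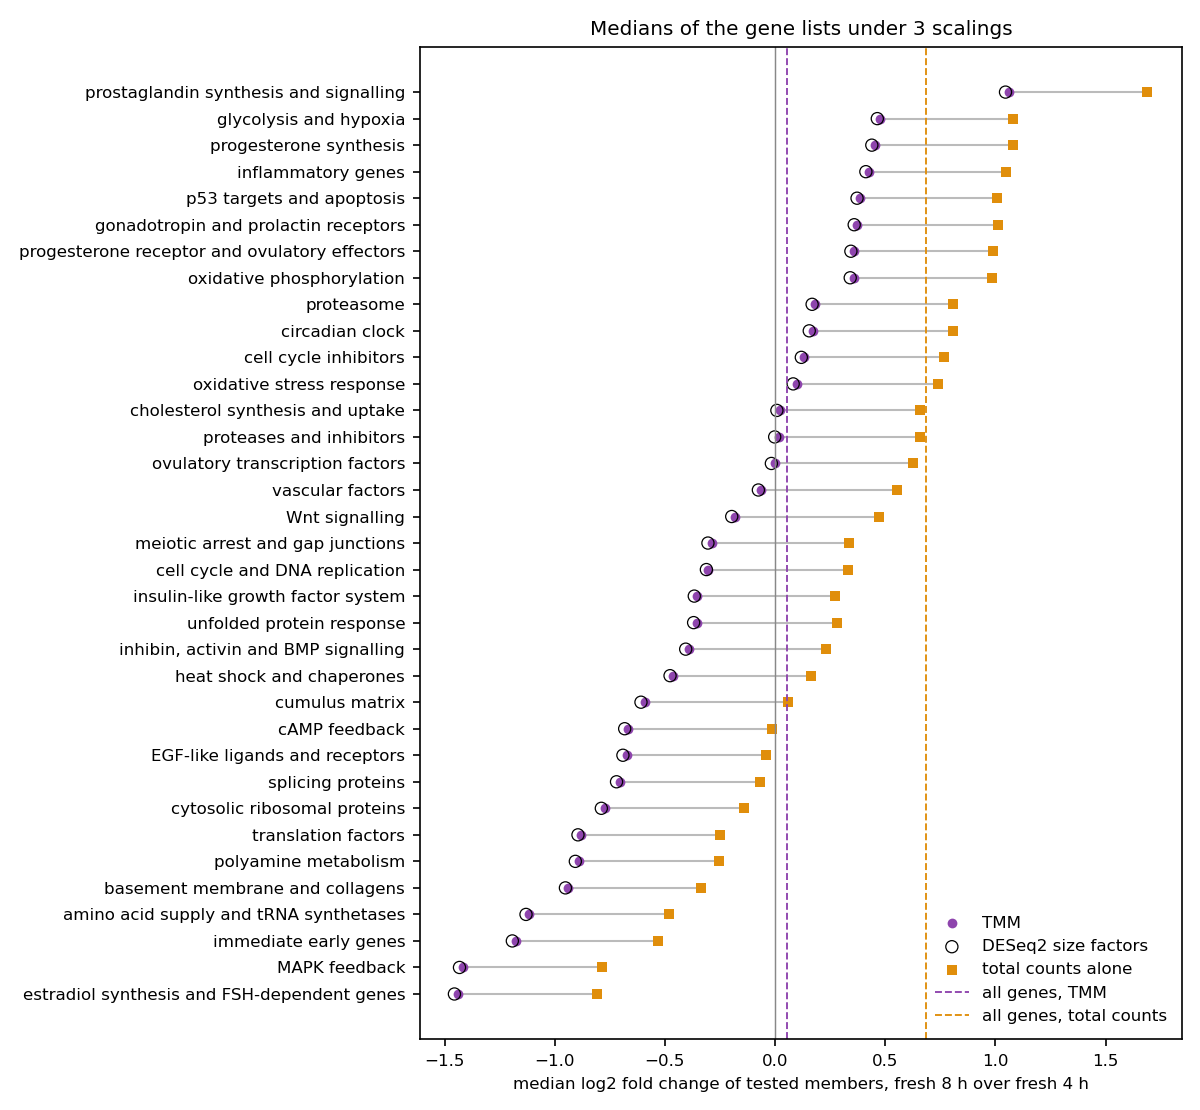
Median log2 fold change, 8 h over 4 h, of the tested members of each gene list under TMM (filled circles), DESeq2 size factors (open circles) and total counts alone (squares), with dashed lines for the median of all genes at 0.06 by TMM and 0.69 by total counts. Ribosomal proteins lie below the all-gene line and oxidative phosphorylation genes above it. Total counts shift all genes by nearly the same amount, so they leave such places almost unchanged.

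Collagen and stroma genes were uneven between follicles. Of basement membrane and collagen genes, 26 of 29 listed members were tested, of which 2 rose and 6 fell (median log2 fold change -0.94). By total counts 6 rose and 1 fell, with a median of -0.34. Leaving out 1 library at a time gave TMM medians of -1.18 to -0.37, nearest 0 without 4 h replicate 4. Without 8 h replicate 1 or 2, 2 fell, and without 8 h replicate 4, 3 fell and 1 rose. Col1a1, of fibrillar collagen I, had 12.1, 10.1, 36.02 and 8.18 CPM at 8 h, against 14.6 to 243 CPM (median 67.1) at 4 h (log2 fold change -2.33 ± 0.82, adjusted p = 0.0378). Its partner Col1a2 had 16.6, 27.5, 65.5 and 11.7 CPM at 8 h, against 33.6 to 358 CPM (median 131) at 4 h (log2 fold change -2.27 ± 0.75, adjusted p = 0.0287). Col6a1, of collagen VI, had 5.80 to 27.02 CPM at 8 h and 12.7 to 223 CPM at 4 h (log2 fold change -2.63 ± 0.86, adjusted p = 0.0271). The groups overlapped in all 3, and each was not called without 8 h replicate 1, 2 or 4 or by total counts (-1.75, -1.70 and -2.03, adjusted p = 0.0929, 0.0717 and 0.0653). Col1a1 was also lost without 4 h replicate 1, 6 or 7. Acta2, smooth muscle actin, had 30.7, 8.45, 37.02 and 24.2 CPM at 8 h, against 23.4 to 408 CPM (median 61.7) at 4 h, with overlap (log2 fold change -2.34 ± 0.87, adjusted p = 0.0471). It was not called without any 1 of the 8 h follicles or without 4 h replicate 1, 3 or 4, and without replicate 4, the highest, its log2 fold change was -1.67 (adjusted p = 0.0578). Of 17 theca and stroma markers 10 were tested, with 1 higher and 3 lower, while 1 rose and 0 fell by total counts (1 fell at an unadjusted p under 0.05); 0 were lower without 8 h replicate 1 or 4, and 1 without 8 h replicate 2 or 4 h replicate 1. Their summed share was 0.0191% to 0.0624% at 8 h and 0.0206% to 0.191% at 4 h; the part of stromal cells in the collagen result was not tested. Cyp17a1, the theca enzyme of androgen synthesis, had 0.365, 23.3, 2.50 and 0.372 CPM at 8 h, against 1.80 to 48.2 CPM (median 13.9) at 4 h and was not called (log2 fold change -1.39 ± 1.14, adjusted p = 0.337), but without 8 h replicate 2 it was (-4.57, adjusted p = 0.0163).

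Against these, Lamc1, the laminin gamma 1 chain of the basement membrane, was higher at 27.9, 31.2, 26.02 and 50.6 CPM at 8 h, against 3.71 to 24.99 CPM (median 7.47) at 4 h (log2 fold change 1.79 ± 0.38, adjusted p = 0.00133). Ptch1, a hedgehog receptor and target in theca cells, was the riser of the stroma list at 16.1, 14.5, 18.5 and 18.6 CPM at 8 h, against 1.32 to 12.8 CPM (median 4.98) at 4 h (log2 fold change 1.47 ± 0.33, adjusted p = 0.00164). Both stood apart between the times.

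Vitrified follicles on the same plate, 3 at 8 h and 7 at 4 h, gave a second estimate of the step that shares no library with the first. Of 8240 genes tested there with edgeR, 22.9% rose and 18.9% fell. Of the 3912 genes called in fresh follicles and tested in vitrified ones, 3718 (95%) had the same sign, and 2542 (65%) were called in the same direction, against 37 (0.946%) called in the opposite one. The steepest steps had like sizes. On the log2 scale Susd3 rose by 7.17 ± 0.24 in fresh follicles and 7.57 ± 0.51 in vitrified follicles (difference -0.42 ± 0.66, adjusted p = 0.911), and Spp1 by 6.37 ± 0.34 and 7.54 ± 0.36 (-1.21 ± 0.49, adjusted p = 0.356). For Pgr the fresh step was -9.35 ± 0.58 and the vitrified step -8.05 ± 0.73 (-1.33 ± 0.67, adjusted p = 0.537). An adjusted p that misses the threshold does not show that the steps were equal. The vitrified follicles of the 2 times likewise sat in different rows, and vitrified 8 h follicles of another plate were not used here.

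The difference of the 2 steps, fresh minus vitrified, was called for 162 of 9296 genes (1.74%; 917 at an unadjusted p under 0.05), 152 of them with a higher value in fresh follicles. Pnrc1, a nuclear receptor coactivator, had the largest difference of those named (5.21 ± 1.14, adjusted p = 0.021, edgeR), from a fresh step of 1.12 ± 0.44, not called (adjusted p = 0.0508), and a vitrified step of -4.11 ± 1.09. Its difference was not called without any 1 of the 3 vitrified 8 h follicles. Tpbg, the trophoblast glycoprotein, fell in both (-1.44 ± 0.23 in fresh, -5.99 ± 0.57 in vitrified; difference 4.54 ± 0.56, adjusted p = 5.07e-05). Tspan5, a tetraspanin, had 1.22 ± 0.29 in fresh and -3.21 ± 0.96 in vitrified follicles (4.42 ± 0.96, adjusted p = 0.0186), but its difference was not called without vitrified 8 h replicate 2 or 3. Rras2, a small GTPase, had 2.22 ± 0.35 in fresh and -1.85 ± 0.63 in vitrified follicles (4.05 ± 0.78, adjusted p = 0.00714). Ybx1, an abundant RNA-binding protein with processed copies in the genome, had 3123, 4619.8, 3586 and 3631 CPM at 8 h, against 756 to 3237 CPM (median 1589.9) at 4 h in the fresh groups (log2 fold change 1.13 ± 0.30), while the vitrified step was -2.84 ± 0.88 (3.97 ± 0.91, adjusted p = 0.0281). Phlda3 differed too (3.63 ± 0.81, adjusted p = 0.0132), with 2.35 ± 0.42 in fresh follicles and too few counts for a test in vitrified follicles alone. Edem1 had 1.41 ± 0.28 in fresh and -1.05 ± 0.45 in vitrified follicles (2.44 ± 0.55, adjusted p = 0.0165). Nr4a1 and Gapdh had steeper falls in fresh follicles. Nr4a1 had -5.25 ± 0.34 in fresh and -3.78 ± 0.31 in vitrified follicles (-1.50 ± 0.37, adjusted p = 0.0283). Gapdh had -1.206 ± 0.135 in fresh and -0.284 ± 0.211 in vitrified follicles, the latter not called (adjusted p = 0.295), with a difference of -0.951 ± 0.236 (adjusted p = 0.0309).

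Lists are compared by their medians. Ribosomal protein genes had a median log2 fold change of -0.77 in fresh follicles and -0.52 in vitrified follicles, with 71 of 82 members lower in fresh follicles and 29 of 82 in vitrified follicles. Immediate early genes had medians of -1.18 in fresh follicles and -0.56 in vitrified follicles, and oxidative phosphorylation genes of 0.36 in fresh follicles and 0.50 in vitrified follicles. Basement membrane and collagen genes had medians of opposite sign, -0.94 in fresh follicles and 0.40 in vitrified follicles, and so had prostaglandin genes, 1.06 in fresh follicles and -0.85 in vitrified follicles. On leaving out 1 fresh library at a time, the fresh median was -1.18 to -0.37 for the first and 0.26 to 1.16 for the second of these lists, both nearest 0 without 4 h replicate 4. Both prostaglandin medians were the value of 1 gene, Ptges2 (1.06 in fresh and -0.85 in vitrified follicles). Every other prostaglandin gene tested in both kept its sign, as Ptgs1 (3.29 and 4.23), Ptgs2 (-6.88 and -6.73) and Slco2a1 (2.64 and 3.29). Abcc4 was tested in fresh follicles alone and Ptgds in vitrified follicles alone. Differences between lists' medians were not tested.

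**Figure D4:**
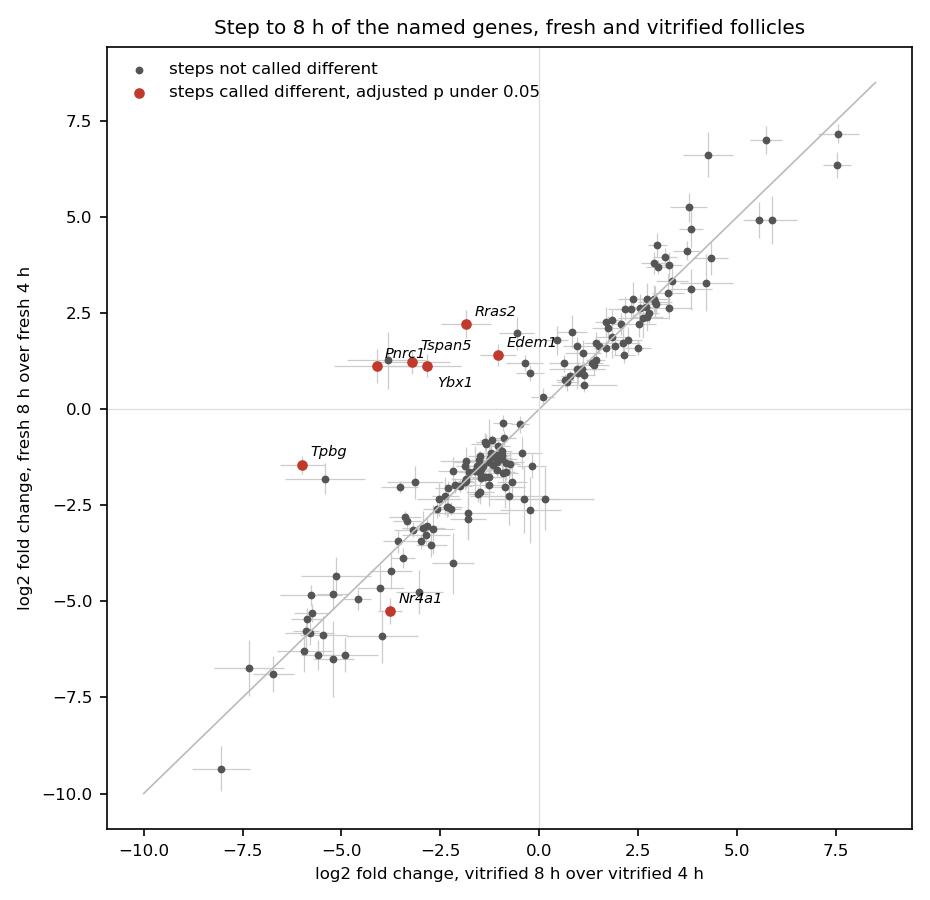
Log2 fold change of each named gene, 8 h over 4 h, in fresh follicles (vertical axis) against vitrified follicles of the same plate (horizontal axis), with standard errors as grey bars and a line of equality. Labelled points are 7 genes whose difference of steps was called, among them Tpbg at -1.44 in fresh and -5.99 in vitrified follicles. Gapdh, whose difference was also called, is not labelled.

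Set in the whole course, the genes of the 4 h to 8 h step had different histories. Values in this paragraph and the next are TPM, recovered from the log2(TPM + 1) values that the authors deposited, as medians over 18, 6, 7 and 4 fresh follicles at 0, 1, 4 and 8 h with the range in brackets; the 0 h follicles were on another plate, and the earlier steps were not tested here. Areg was at 0.157 (0 to 0.525), 304 (160.4 to 327), 343 (178 to 411) and 5.44 (4.23 to 10.6) TPM. Its 8 h range lay below the 1 h and 4 h ranges and above the 0 h range. Pgr was at 0.131 (0 to 0.393), 93.98 (42.1 to 121), 369 (305 to 479) and 0.865 (0.333 to 2.05) TPM, and Ptgs2 at 0 (0 to 0.161), 39.9 (14.2 to 51.7), 873 (732 to 1492) and 12.1 (9.54 to 27.2) TPM. Both had their highest median at 4 h, and at 8 h remained above the 0 h median. Star was at 2.85 (0.423 to 14.6), 4488 (3036 to 7940), 3261 (1846 to 5344) and 1539.5 (677 to 2227) TPM, so that the 8 h follicles were far above those of 0 h although their median was below that of 4 h.

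Spp1 was at 0.0969 (0 to 7.68), 0.234 (0 to 0.763), 10.3 (4.36 to 15.9) and 1354 (898 to 2116) TPM, high at 8 h alone among these times. Susd3 and Tsc22d3 had their lowest median at 4 h: Susd3 was at 6.99 (3.24 to 10.3), 2.71 (0.753 to 4.76), 0.250 (0.107 to 0.598) and 69.2 (60.6 to 83.6) TPM, and Tsc22d3 at 0.677 (0.398 to 0.959), 0.746 (0.455 to 1.12), 0.0737 (0.0314 to 0.361) and 23.5 (19.5 to 27.7) TPM. Fshr followed a like course at 1.49 (0.456 to 2.41), 1.27 (0.979 to 2.77), 0.0102 (0 to 0.0333) and 0.888 (0.607 to 0.969) TPM, with the 8 h range inside that of 0 h. Inha was at 34858 (21948 to 50081), 35266 (32153 to 44926), 39976 (35471 to 48742) and 18319 (16770 to 24979) TPM, with its lowest median at 8 h and an 8 h range that overlapped that of 0 h.

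**Figure D5:**
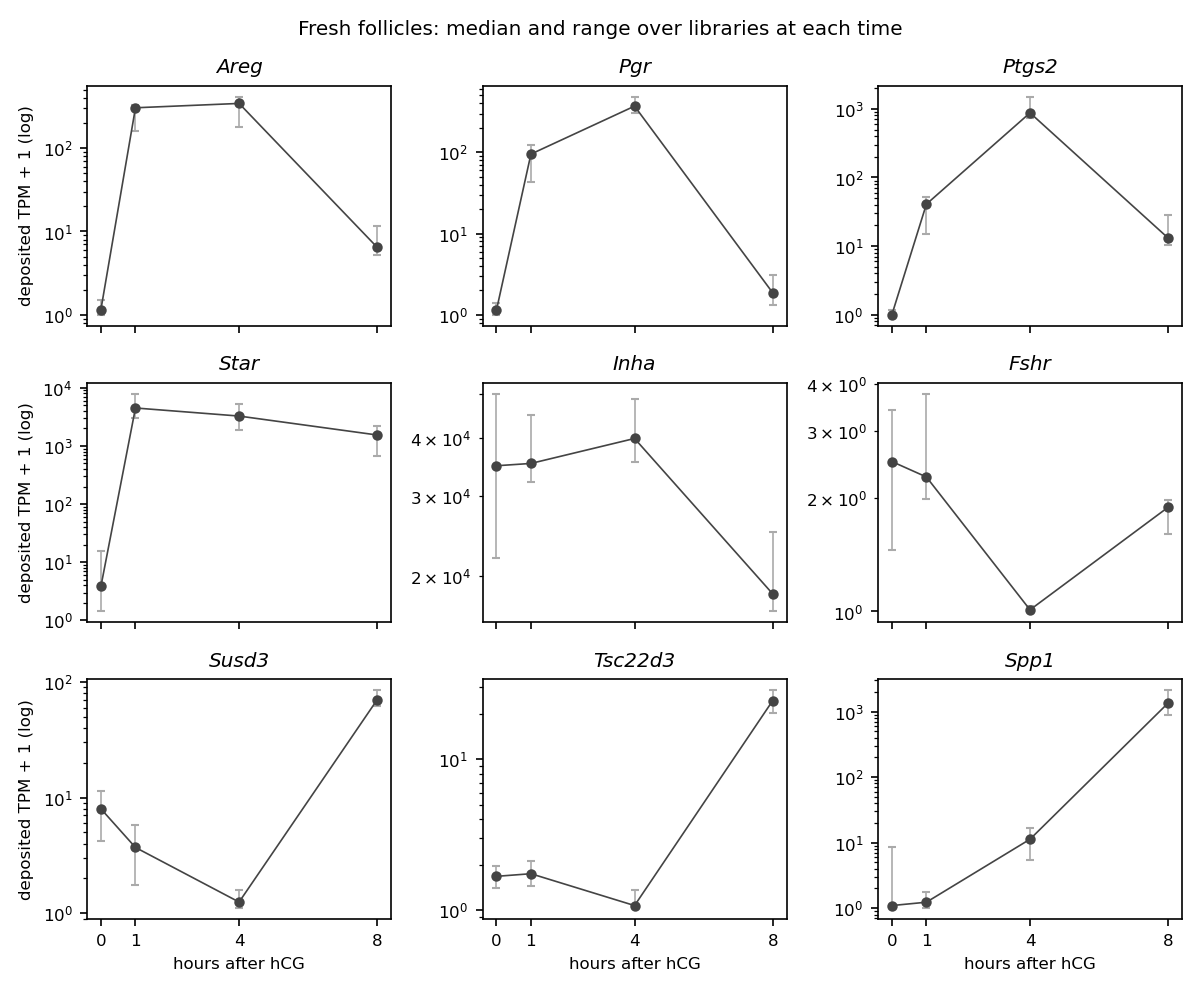
TPM plus 1, from the deposited log2 values, on log axes for 9 genes in fresh follicles at 0, 1, 4 and 8 h after hCG, with points for medians and bars for the lowest and highest of 18, 6, 7 and 4 follicles. Areg, Pgr and Ptgs2 are high at 4 h and low at 8 h, Susd3, Tsc22d3 and Fshr are lowest at 4 h, and Spp1 is highest at 8 h.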

How the data were processed

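RNA of single follicles (RNeasy Plus Micro) was amplified with Smart-Seq2, made into libraries with Nextera XT and sequenced on a NextSeq, per the labels' protocols. This chemistry has no molecular identifiers, so reads are not independent molecules, and no strand, so a gene and its antisense partner cannot be told apart. The authors deposited a table of estimated counts for 21572 genes and a table of log2(TPM + 1) values, from which TPM was recovered here. The submitters' processing notes name Partek, Bowtie2, HISAT2, DESeq2 and mm10, and versions and roles are not given in the sources used here. In the deposited counts 16.9% of values were not whole, and all were rounded. The deposited log2 values rest on lengths close to the whole gene span with introns, so TPM was never compared between genes, and 21070 symbols matched 1 gene of GENCODE vM21.

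The 11 libraries were fitted alone with edgeR 4.0.16 in R 4.3.3 (quasi-likelihood, robust, TMM, genes kept by filterByExpr with a minimum count of 10, adjusted p under 0.05); this was checked on simulated data. The vitrified libraries were fitted separately, and the difference of steps with all 21. Library measures were compared by two-sided exact permutation tests. Alternatives were DESeq2 1.42.0, its size factors, total counts alone, no filter, a non-robust fit, thinned counts, all 83 libraries, limma 3.58.1 on log2(TPM + 1) and log2(TPM + 0.1), the replicate block, and each library left out; a limma fit without Gm10800 and the shares of Gm10800 and of ribosomal genes were chosen after seeing the data. Genes were named by rule: the 12 largest rises and 12 largest falls among called genes without overlap at a mean of 20 CPM or more, the 6 largest differences in CPM each way, up to 4 leading members of each of the 43 lists at 5 CPM or more with further members whose role is described, and the 5 largest differences of steps; some of the genes so chosen are not reported here. Members and lists were chosen with earlier results of these data known. Fold changes on the log2(TPM + 1) scale understate the change of low genes.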

Additional observations from a re-analysis of the deposited data

Results flagged for a closer look

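Over 134 named genes and the library measures, 300 groups of 4 or 7 follicles were examined for a follicle far from the rest of its group; chance alone sets 1 apart in about 1 group in 20. At 8 h, replicate 1 was low for Slc7a8 (9427 CPM, others 13587 to 13832) and Fshr (21.9 CPM, others 35.3 to 36.2), high for Lss (69.6 CPM, others 53.2 to 55.5), and low in the share of the 50 most abundant genes (34.1%, others 37.5% to 38.1%). Replicate 2 was high for Rpl26 (160.3 CPM, others 114 to 121) and Cyp17a1 (23.3 CPM, others 0.365 to 2.50). Replicate 3 was high for Col1a1 (36.02 CPM, others 8.18 to 12.1), and replicate 4 for Ptx3 (757 CPM, others 109 to 194) and Edem1 (50.2 CPM, others 24.5 to 28.3).

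At 4 h, replicate 4 was apart most often. It was high for Col1a1 (243 CPM, others 14.6 to 98.6), Acta2 (408 CPM, others 23.4 to 186), Lamc1 (24.985 CPM, others 3.71 to 11.7) and Txnip (7.22 CPM, others 0 to 1.49), and low for Inhba (11637 CPM, others 17313 to 20954). Its markers of theca and stroma (0.191% of counts, others 0.0206% to 0.0905%), smooth muscle (0.0111%, others 0.000797% to 0.00385%) and oocyte (0.0178%, others 0.00417% to 0.00864%) were also the highest. Replicate 3 was high for Flrt3 (245 CPM, others 19.99 to 104) and Odc1 (1320 CPM, others 309 to 678). Replicate 5 was high for Susd3 (2.92 CPM, others 0.661 to 1.59) and Ccnd2 (170.4 CPM, others 90.5 to 115), replicate 6 for Tsc22d3 (6.71 CPM, others 0.661 to 2.78), and replicate 7 for Traf3ip2 (8.48 CPM, others 1.98 to 4.31) and Ptgs1 (7.42 CPM, others 0 to 1.99).

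Tested in 1 model, the step to 8 h in fresh follicles minus that in vitrified follicles was 5.21 on the log2 scale for Pnrc1, 4.54 for Tpbg, 4.42 for Tspan5, 4.05 for Rras2, 3.97 for Ybx1, 3.63 for Phlda3, 2.44 for Edem1, -0.951 for Gapdh and -1.50 for Nr4a1.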

How the results depend on the processing

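Against 2108 genes higher and 1931 lower (1441 and 1061 at least 2-fold), total counts alone gave 4085 and 753 (2985 and 424). No filter gave 2215 higher at least 2-fold. limma on log2(TPM + 1) gave 3489 higher and 466 lower, 239 of these at least 2-fold; on log2(TPM + 0.1) 3362 and 468 (2519 and 271); with no filter 5944 and 494 (2456 and 216); and without Gm10800 3227 and 678, 316 of these at least 2-fold. By total counts the vitrified step gave 3462 higher and 748 lower, and 5 genes had a smaller value in the fresh step. Leaving out each library in turn gave 1841 to 2104 genes higher and 1680 to 1940 lower (1340 to 1495 and 996 to 1129 at least 2-fold), 1543 to 1910 and 1316 to 1651 for vitrified follicles, and 98 to 177 larger and 4 to 21 smaller steps; the fits tested different numbers of genes. Of the calls, 99.3% were shared with DESeq2, 70.8% with total counts, 67.5% with the replicate block, and in limma 48.6% on log2(TPM + 1), 48.7% on log2(TPM + 0.1), 63.4% with no filter and 55.2% without Gm10800, with 29, 32, 20 and 1 genes called the opposite way.

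The sign turned for Vcan by total counts (0.285) and in limma on TPM (0.430, 0.431, 0.430 and 0.249 in the order above) and for Hsd3b1 likewise (0.263, 0.403, 0.403, 0.403 and 0.222). On leaving out each library, the difference in oocyte share was -0.000424 (without 8 h replicate 4) to 0.00285 percentage points (without 4 h replicate 4), that in endothelial share -0.000349 (without 8 h replicate 3) to 0.00201 (without 4 h replicate 4), and the smooth muscle ratio of medians 1.12 (the erythroid ratio has a 4 h median of 0 and no value); the cause was not tested. Cyp11a1 was called lower by DESeq2 (-1.28, adjusted p = 0.0144) and without the robust spread (-1.27, adjusted p = 0.0398).

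3 numbers in the titles occur at both times. Deviations of same-numbered follicles correlated at -0.056, -0.006 and 0.035. So few correlations cannot show whether such follicles share an animal or a culture run. With the replicate block 1489 genes were higher and 1395 lower (1284 and 1029 at least 2-fold), Ctsl, Ucp2, Jcad and Acta2 were not called, and Vcan and Hsd3b1 were. Depth limits the low genes: with 1615779 counts in the shallowest library, folds against a 4 h group with a handful of counts are poorly bounded.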
